A study of Mus musculus with 8 samples.

Results

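Inner root sheath-like cells of mouse dorsal skin were examined in 8 single-cell libraries, 4 from skin injected with PBMCsec and 4 from skin injected with vehicle. PBMCsec is the mixture of factors that irradiated human peripheral blood mononuclear cells release into their medium. A cell was taken as inner root sheath-like when at least 3 of 6 genes, Krt25, Krt27, Krt28, Krt71, Krt73 and Tchh (called rule genes here), each had at least 2 unique molecular identifiers (UMIs, counted mRNA molecules). It also had to have no UMI of the leukocyte gene Ptprc and under 1% of its UMIs from Col1a1, Col1a2 and Col3a1. Only barcodes within 3 quality limits were considered, namely 500 to 4000 genes, no more than 20000 UMIs and a mitochondrial share of up to 10%. This left 298 inner root sheath-like cells among 11118 cells within these limits (2.68%), out of 26231 barcodes in all. The cells were thus chosen by their measured values of these genes.

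The mice were female BALB/c animals aged 14 to 16 weeks, and each library came from 4 mm biopsies of dorsal skin. The study describes injections into scars left by excision wounds, but the labels mention no scar and the series carries another title, so the tissue is called dorsal skin here. The study also describes that some injected mice were sampled right after the injections and others later, and that controls received NaCl or medium. The labels give neither the day of sampling nor the control solution of each mouse. PBMCsec libraries 1 to 4 were therefore compared with vehicle libraries 1 to 4 by treatment alone, and a part of sampling day cannot be told apart. No label says how many mice stand behind a library, and p-values measure the spread between libraries.

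The inner root sheath is the epithelial sleeve that encases the growing hair shaft. It forms from matrix cells at the base of the growing follicle, as Henle's layer, Huxley's layer and a cuticle, and is broken down in the upper follicle. Its cells make their own type I keratins (Krt25, Krt27, Krt28) and type II keratins (Krt71, Krt73), which pair into filaments. Trichohyalin (Tchh) embeds these filaments after peptidylarginine deiminases modify it and transglutaminases cross-link it.

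The libraries did not contribute equally. Library totals lay between 14753926 and 37880651 UMIs. Vehicle 3 gave 122 of the 298 cells, vehicle 4 gave 69, PBMCsec 4 gave 64 and PBMCsec 3 gave 23. PBMCsec 1 gave 10 cells, vehicle 2 gave 6, PBMCsec 2 gave 4 and vehicle 1 gave 0. The median inner root sheath-like cell had 12826 UMIs, against 8950 in the other epithelial cells, which are defined below. The 10 cells of PBMCsec 1 stood apart with a median of 1894 UMIs, although cells of all kinds in that library had a median of 8434.5. The 4 cells of PBMCsec 2 had a median of 3819.5 UMIs, while the medians of the remaining libraries lay between 11275 and 15338. Across all barcodes, 78 sequences occurred in more than 1 library, and 2 of the inner root sheath-like cells carried such a barcode.

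The upper limits on depth left out more cells of this kind than they kept. Over all barcodes, 1302 met the marker criteria, and 1004 of these lay outside the quality limits. Of the 1004, 708 were over the limit on genes or UMIs alone, 257 over the mitochondrial limit alone, 15 over both and 24 had under 500 genes. The cells described here are therefore the shallower ones of their kind. Just outside the rule lay 143 cells with 2 rule genes, which had a median of 10 rule-gene UMIs, while the 130 members with exactly 3 had a median of 21. Krt25 UMIs were also found in 3.502% of 1028 T cells (median 3364.5 UMIs) and 8.71% of 2584 fibroblasts (median 7555 UMIs), the background here. By library it ran from 0% to 9.71% of T cells and from 1.41% to 15.2% of fibroblasts, and was highest in vehicle 3 for both. Over all libraries, 0 of the T cells and 1 of the fibroblasts had 3 rule genes.

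The rule genes lie in 3 places of the mouse genome (GRCm38, GENCODE M21). Krt25 (chr11:99315516-99322951), Krt27 (chr11:99345565-99351104) and Krt28 (chr11:99364872-99374903) neighbour each other within the type I keratin cluster. Krt71 (chr15:101733949-101743109) and Krt73 (chr15:101793308-101802346) lie within the type II cluster, and Tchh (chr3:93442330-93449077) lies in the epidermal differentiation complex. Since these genes define the cells, the 250 bases before the start of 3 of them are shown, 1 from each place. The rule asked for 3 of the 6 genes together, and all 6 were at 2 or more UMIs in 35 of the 298 cells (11.7%). They come from RefSeq promoter sequences of GRCm38.p6, read 5′ to 3′ along the gene. Capitals mark matches, on either strand, to 4 motifs. The motif of GATA factors was searched as AGATAA. That of the DLX and MSX homeodomain factors was searched as TAATTG. That of the TCF and LEF factors was searched as CTTTGA, and the TATA box as TATAAA.
Krt25 (chr11:99322952-99323201, minus strand): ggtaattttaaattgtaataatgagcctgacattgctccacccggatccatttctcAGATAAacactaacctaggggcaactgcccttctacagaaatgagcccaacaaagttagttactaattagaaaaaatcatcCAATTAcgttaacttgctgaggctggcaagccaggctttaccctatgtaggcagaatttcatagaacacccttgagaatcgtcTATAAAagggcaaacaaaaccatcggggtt
Krt73 (chr15:101802361-101802610, minus strand): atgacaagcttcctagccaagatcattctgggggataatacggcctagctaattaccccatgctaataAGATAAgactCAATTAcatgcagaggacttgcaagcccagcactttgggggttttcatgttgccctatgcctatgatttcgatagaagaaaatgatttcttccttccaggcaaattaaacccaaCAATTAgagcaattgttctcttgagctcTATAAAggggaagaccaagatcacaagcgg
Tchh (chr3:93442080-93442329, plus strand): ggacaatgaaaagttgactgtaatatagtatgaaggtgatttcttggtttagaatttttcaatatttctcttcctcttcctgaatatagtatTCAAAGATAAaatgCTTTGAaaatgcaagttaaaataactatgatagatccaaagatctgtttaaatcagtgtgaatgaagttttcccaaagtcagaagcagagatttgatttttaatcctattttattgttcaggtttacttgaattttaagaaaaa
AGATAA was found before 5 of the 6 rule genes, the exception being Krt28, and in 9.99% of 32851 promoters of the same length. TATAAA was found before all 5 keratin genes but not Tchh, and in 12.4% of promoters. TAATTG was found before Krt25, Krt28 and Krt73 (7.17% of promoters). CTTTGA was found before Krt28 and Tchh (13.8% of promoters), and in Tchh one of its matches overlaps AGATAA. A match describes these letters and not the binding of a factor.

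The 6 rule genes were not carried equally. At 2 or more UMIs, Krt25 was present in 99.0% of the 298 cells and Krt28 in 97.0%. Krt27 followed with 79.2%, Krt71 with 63.1%, Krt73 with 44.6% and Tchh with 23.8%. The count per cell ran the same way for Krt25, with a median of 23 UMIs, and Krt28, with 10, down to medians of 4 for Krt27, 4 for Krt71, 1 for Krt73 and 0 for Tchh. Rule-gene UMIs made up a median of 0.733% of all UMIs of a cell, with a range from 0.0412% to 26.5%. In 21 cells they exceeded 5%.

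Summed over cells, the levels are given as CPM, the UMIs of a gene per 1000000 UMIs. This is a 3′ assay that counts molecules, so gene length does not enter. Krt25 reached 5546, 2141, 7198 and 4985 CPM in PBMCsec 1 to 4, and 4140, 4258 and 5305 CPM in vehicle 2 to 4. Krt71 reached 5390, 595, 7064 and 3834 CPM in PBMCsec 1 to 4 and 1458, 4016 and 4867 CPM in vehicle 2 to 4. Tchh reached 117, 0, 2162 and 3367 CPM in PBMCsec 1 to 4, and 1210, 3151 and 3832 CPM in vehicle 2 to 4. The groups overlapped for each of the 3 genes, and the low values of Krt71 and Tchh lay in the libraries with the fewest or shallowest cells. In the 7 libraries, Krt28 lay between 1316 and 2421 CPM, Krt73 between 1010 and 2734 CPM and Krt27 between 935 and 1549 CPM. Pooled over libraries, Krt25 stood at 4878 CPM, Krt71 at 4323, Tchh at 3226, Krt28 at 1588, Krt73 at 1330 and Krt27 at 1196. Tchh was also high outside the rule, at 5371 CPM pooled over 70 companion-like cells. A single one of the other epithelial cells held 2126 Tchh UMIs, and its part in that level was not tested. Companion-like cells have 2 or more UMIs of at least 3 companion layer markers but not of another epithelial class. Of the other inner root sheath keratins, Krt26 had 51 UMIs and Krt72 had 4 UMIs in all 298 cells.

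**Figure D1:**
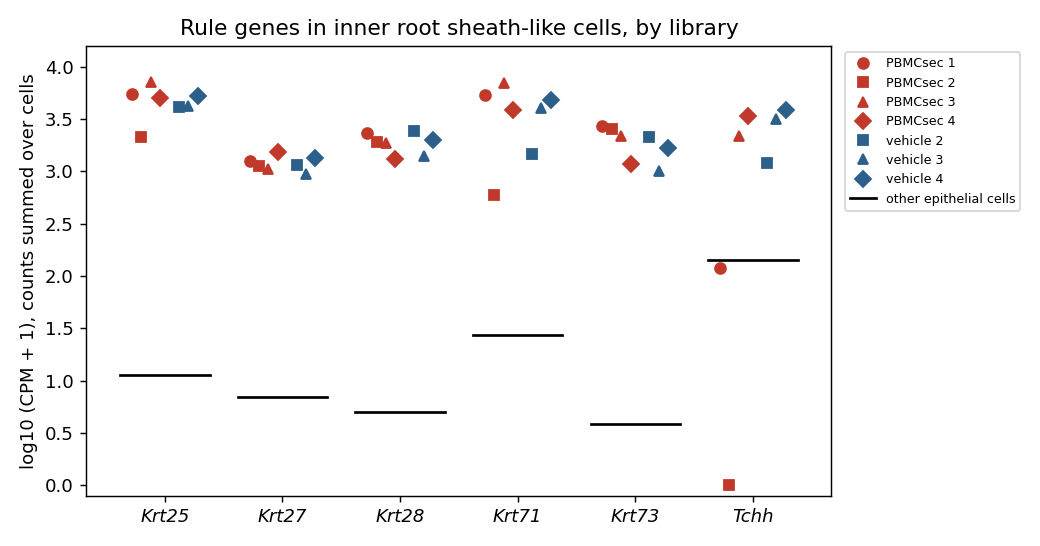
Level of the 6 rule genes, as log10 of CPM plus 1 of counts summed over the inner root sheath-like cells of a library. Points are the 7 libraries with such cells (red PBMCsec, blue vehicle), and black lines are the other epithelial cells pooled over libraries. Tchh spread the most, from 0 CPM in PBMCsec 2 to 3832 CPM in vehicle 4.

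Other epithelial cells were defined as cells within the quality limits that did not meet the rule, had no Ptprc UMI and under 1% collagen UMIs, and had at least 1% of their UMIs from keratin genes (4281 cells). The comparison with them is a description without a test, since the rule chose the cells and the keratin minimum chose the others. Among the inner root sheath-like cells themselves, 160 of 298 had under 1% of their UMIs from keratin genes. Basal keratins were far lower than in other epithelial cells: Krt14 stood at 281 against 8603 CPM, Krt15 at 108 against 4911 CPM and Krt5 at 402 against 4653 CPM. Suprabasal genes were lower too, with Krt1 at 9.50 against 1163 CPM, Krtdap at 12.0 against 1061 CPM and Krt10 at 60.1 against 1738 CPM. Each of these 6 genes was lower in every one of the 7 libraries. For the keratins among them this direction is partly set by the 1% minimum, which was asked of the other epithelial cells only.

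Outside the rule, the 20 genes with the highest ratio to other epithelial cells were led by Cdh6, Dcn, Nrp2 and Dlx3. Cdh6, a classical cadherin, was at 197 CPM against 0.334 CPM and was found in 46.3% of the cells. It reached 273, 297, 227 and 198 CPM in PBMCsec 1 to 4 and 481, 135 and 268 CPM in vehicle 2 to 4, so that every library was high. Nrp2, a neuropilin that binds semaphorins, stood at 237 against 5.14 CPM. The transcription factors Dlx3 (273 against 9.94 CPM), Lef1 (181 against 5.58 CPM), Msx2 (179 against 8.28 CPM), Msx1 (78.2 against 4.60 CPM) and Cux1 (708 against 69.1 CPM) were among the 20. Dlx3, Lef1 and Cux1 were higher in all 7 libraries, and Msx2 and Msx1 in 5 of 7. Some of these genes were as high or higher in 8 hair shaft-like cells outside the rule, where Lef1 stood at 815, Msx2 at 359.9, Bambi at 201 and AC103674.4 at 3642 CPM, while Cdh6 stood at 10.6, Dlx3 at 116 and Cux1 at 318 CPM. Lef1 is a nuclear partner of beta-catenin, and the Wnt antagonist Nkd2 (127 against 0.977 CPM) and the BMP pseudoreceptor Bambi (113 against 11.3 CPM) were also on the list. Others of the 20 were the claudin gene Cldn10, the unnamed genes AC103674.4 and AC160336.1, Golga7b, Csrp2 and the replication gene Pclaf. Cited4, Csgalnact1 and the zinc exporter gene Slc30a1 were also among them, and all of these had 79.4 to 570 CPM. Besides AC103674.4, the 8 hair shaft-like cells were higher for Cldn10 (148 against 139 CPM), AC160336.1 (688 against 570 CPM) and Cited4 (180 against 121 CPM). They were lower for the rest of these genes. Bambi stood at 184 CPM in the companion-like cells.

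Dcn, which encodes the proteoglycan decorin and is best known from fibroblasts, stood at 589 against 24.98 CPM. It was found in 48.0% of the cells and reached 39.1, 119, 164 and 653 CPM in PBMCsec 1 to 4 and 151, 886 and 193 CPM in vehicle 2 to 4. The other 7 genes of a list of fibroblast genes were at most at 23.8 CPM. Lum stood at 2.79 CPM against 5.60 in other epithelial cells. Col1a1, at 14.5 against 15.7, and Col3a1, at 22.1 against 27.7, were limited in both kinds of cells by the rule on collagen UMIs. The Dcn UMIs were spread over 143 cells, with 4.60% of them in the highest cell.

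Gene lists of follicle biology were described by counts among genes found in at least 25% of the cells, where 354 of all 4918 genes were at least 2-fold higher than in other epithelial cells and 198 at least 2-fold lower. Of 19 follicle transcription factors, 11 were at least 2-fold higher and 2 lower. Gata3, a factor needed for the inner root sheath lineage, stood at 460 against 236 CPM, just under 2-fold, and was higher in 7 of 7 libraries. Suprabasal-like cells had nearly the same level of Gata3, 448 CPM. The deiminase gene Padi3 stood at 82.7 against 8.74 CPM and was higher in 7 of 7 libraries, while the transglutaminase gene Tgm3 stood at 31.3 against 15.8 CPM, but at 222 CPM in the 8 hair shaft-like and 100.3 CPM in the 70 companion-like cells. Of 14 desmosome and junction genes, 1 was at least 2-fold higher (Dsc1, desmocollin 1, at 88.9 against 13.9 CPM) and 2 lower. Dsc1 was at 105 CPM in suprabasal-like cells. The most abundant were Perp, a desmosomal membrane protein (1822 against 2506 CPM, lower in 7 of 7 libraries), and Dsp, desmoplakin (1024 against 1669 CPM, lower in 5 of 7). Of 11 S phase genes 9 were at least 2-fold higher, as were 9 of 11 G2 and M phase genes. Mki67 stood at 293 against 61.7 CPM and Top2a at 167 against 39.5 CPM. They were higher in 5 and 4 of the 7 libraries. Of 17 immediate early and heat shock genes, 11 were at least 2-fold lower, and of 3 interferon-stimulated genes all 3 were lower, H2-D1 standing at 184 against 2108 CPM.

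The pattern most like the summed rule genes was sought over 25 points, each an epithelial class in a library with at least 5 cells of the class. By Pearson correlation of log2 CPM, the closest genes were Padi3 (r = 0.92), the RNA helicase gene Ddx39 (0.92), the non-muscle myosin gene Myh14 (0.91), Rexo2 (0.90) and Acaa2 (0.90). No library had 5 hair shaft-like cells, so that class is not among the points. Pooled over its 8 cells, it was as high or higher for Ddx39 (201 against 196 CPM), Myh14 (106 against 101 CPM) and Rexo2 (635 against 452 CPM), and companion-like cells were as high for Acaa2 (344 against 339 CPM). These points share libraries and differ in depth, so the correlations are descriptions.

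The cells varied along the number of rule genes they carried. There were 130 cells with 3 rule genes, 53 with 4, 80 with 5 and 35 with all 6. Depth moved little with this number, since the median was 13134 UMIs with 3 rule genes and 12806 UMIs with 5 or 6. The comparison of cells with 5 or 6 and cells with 3 rule genes was made within the 4 libraries that had at least 4 cells of each kind (PBMCsec 3 and 4, vehicle 3 and 4) and is again a description. Among 4918 genes, 14.7% were higher with 5 or 6 rule genes in all 4 libraries and 17.0% were lower in all 4.

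Several genes, picked after their values were seen, were higher in the cells with more rule genes. Of 19 follicle transcription factors, 6 were higher with 5 or 6 rule genes in all 4 libraries and 4 lower. Gata3 stood at 1107 against 209 CPM in PBMCsec 3, at 680 against 173 in PBMCsec 4, at 664 against 206 in vehicle 3 and at 739 against 46.7 in vehicle 4. Crym, which encodes the thyroid hormone-binding mu-crystallin, stood at 275 against 17.4 CPM, 345 against 0, 184 against 3.55 and 383 against 0 in the same order. The transcription factor gene Maf went over 61.9, 127, 299 and 1155 CPM from 3 to 6 rule genes, and so did Dmkn, the dermokine gene, over 115, 256, 781 and 1704 CPM. Cathepsin C (Ctsc) went over 130, 279, 364 and 881 CPM and the water channel gene Aqp3 over 23.5, 68.9, 223 and 612 CPM. Nkd2 (267 against 6.81 CPM), Elovl4, an elongase of very long fatty acids (68.7 against 2.48 CPM), Dsc1 (179 against 13.01 CPM) and the differentiation factor Klf4 (336 against 61.3 CPM) were also higher in 4 of 4 libraries. Of 14 desmosome and junction genes, 9 were higher in all 4 libraries and 2 lower.

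Other genes, picked in the same way, were higher in the cells with 3 rule genes. Krt35, a hair shaft keratin, was found in 29.2% of them and in 5.22% of those with 5 or 6. It stood at 3450, 635.5, 408 and 1043 CPM in the cells with 3 rule genes of PBMCsec 3, PBMCsec 4, vehicle 3 and vehicle 4, and at 0, 7.12, 6.99 and 2.11 CPM in those with 5 or 6. The value of PBMCsec 3 rests on 1 cell out of 4 with 3 rule genes. Hoxc13, which drives hair keratin genes, stood at 366, 278, 208 and 360 CPM against 34.4, 14.2, 11.7 and 10.5 CPM. Mt4, the metallothionein of stratified epithelia, stood at 373 CPM over all cells with 3 rule genes against 5.72 CPM with 5 or 6, Mt1 at 1670 against 179.5 CPM and Dcn at 893 against 40.8 CPM. Cell cycle genes were higher too: 10 of 11 S phase genes and 9 of 11 G2 and M phase genes were lower with 5 or 6 rule genes in all 4 libraries. Mki67 stood at 375 CPM with 3 rule genes, 452 with 4, 167 with 5 and 62.1 with 6.

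**Figure D2:**
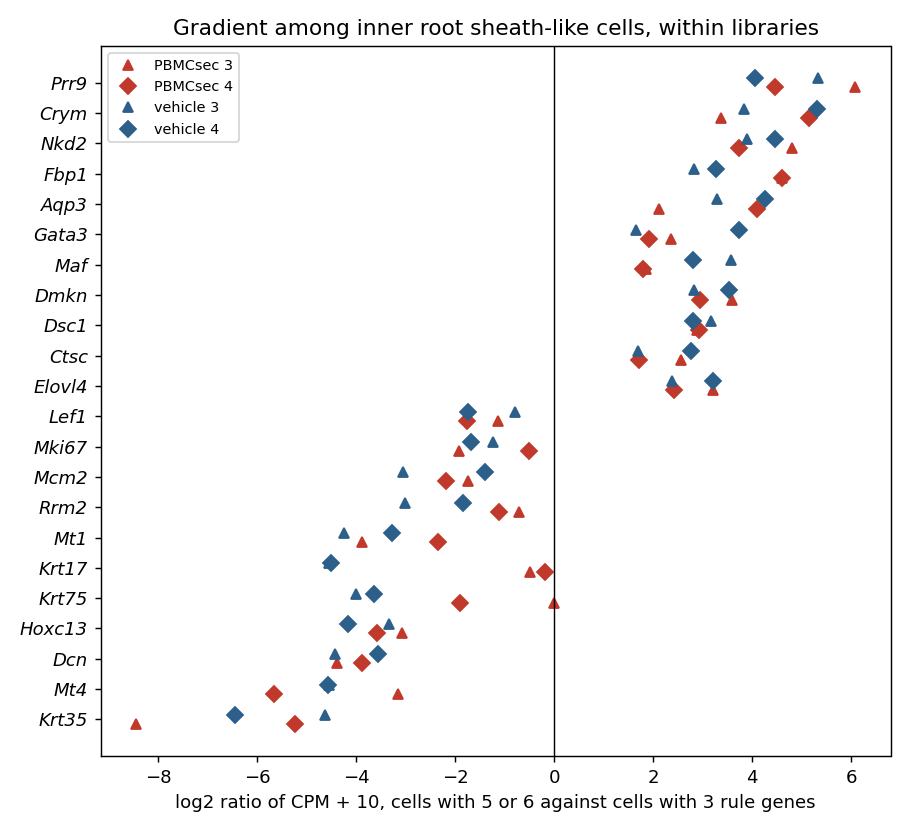
Log2 ratio of CPM plus 10 in cells with 5 or 6 against cells with 3 rule genes, within PBMCsec 3 and 4 (red) and vehicle 3 and 4 (blue). The upper 11 genes lay above 0 and the lower genes below 0 in all 4 libraries, apart from Krt75, which had no UMI in either kind of cell in PBMCsec 3.

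The combination of rule genes sorted the cells further. These groups were formed after values had been seen, and are given as descriptions. The 75 cells with Krt25, Krt27 and Krt28 alone had the highest Krt35 and Hoxc13, with Krt35 at 1076 CPM, Krt86 at 70.8 CPM, Hoxc13 at 362 CPM, Mt4 at 562 CPM and Lef1 at 335 CPM. Krt35 stood at 823, 715 and 1512 CPM in PBMCsec 4, vehicle 3 and vehicle 4, where this combination had at least 14 cells each. In the other 6 groups of cells plotted by combination it was at most at 13.7 CPM pooled over libraries, and at most at 26.7 CPM in a single library with at least 4 cells of the combination. The 41 cells with Krt25, Krt28 and Krt71 held Krt75, the keratin of the companion layer next to Henle's layer, at 364 CPM and Krt17 at 500 CPM. Krt75 was at 555.5 CPM in the 26 such cells of vehicle 3 and at 44.8 CPM in the 8 of PBMCsec 4, so its level there rests on vehicle 3. The 19 cells with Krt25, Krt27, Krt28 and Krt71 had the highest Dcn, at 2210 CPM, with 2394 CPM in PBMCsec 4 and 2637 CPM in vehicle 3.

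Cells with Krt73 were high in other genes. Pooled over the 21 cells with Krt25, Krt27, Krt28 and Krt73, Crym stood at 639.5 CPM, Gata3 at 909 CPM, Cdh6 at 470.5 CPM, Fbp1, the gluconeogenic fructose-bisphosphatase, at 512 CPM and Shh at 114 CPM. These pooled levels hid differences between libraries: in the 8 such cells of vehicle 3 and the 5 of vehicle 4, Fbp1 stood at 0 and 340.4 CPM and Crym at 147 and 430 CPM, while Gata3 stood at 868 and 1021 CPM. In the 63 cells that added Krt71, Crym stood at 460 CPM, Gata3 at 863 CPM and Fbp1 at 271 CPM. Fbp1 was at 0, 1099, 328, 94.2 and 140.5 CPM in PBMCsec 1, 3 and 4 and vehicle 3 and 4, so that PBMCsec 3 gave 90 of its 213 UMIs. Crym was at 489, 492, 302 and 595 CPM in PBMCsec 3, PBMCsec 4, vehicle 3 and vehicle 4 in these cells, and had 0 UMIs in the 4 of PBMCsec 1. The 35 cells with all 6 genes reached 15865 CPM of Krt25, 13977 CPM of Tchh and 13744 CPM of Krt71. They had 320 CPM of Padi3, 1704 CPM of Dmkn and 1155 CPM of Maf, the lowest Mki67 of these combinations (62.1 CPM) and 124 CPM of Crym. The 29 cells with Tchh but without Krt73 had 14179 CPM of Tchh, 16.6 CPM of Krt73 and 3.33 CPM of Crym, while Maf stood at 595.5 CPM.

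**Figure D3:**
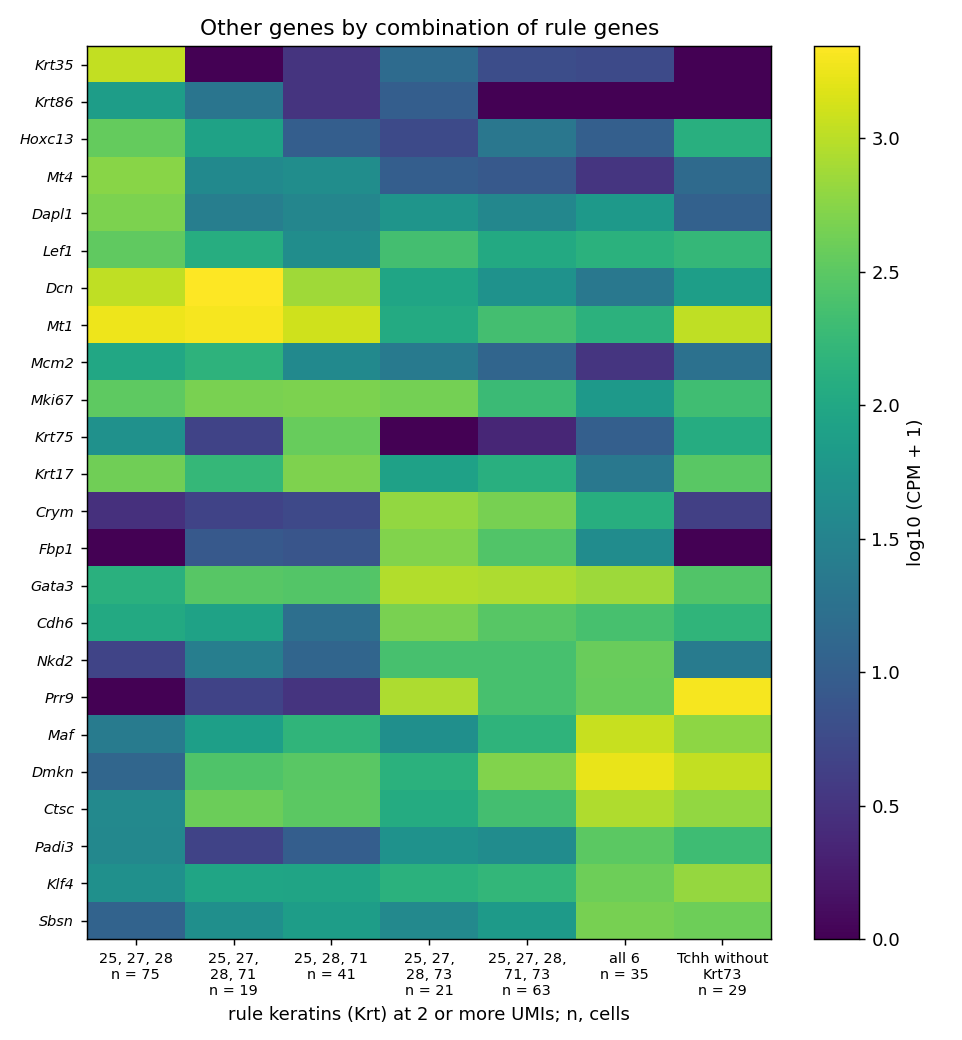
Level of 24 genes outside the rule, as log10 of CPM plus 1, in the 6 most frequent combinations of rule genes and in all cells with Tchh but without Krt73 (n, number of cells). Krt35, Hoxc13 and Mt4 were highest in the cells with Krt25, Krt27 and Krt28 alone, Crym and Fbp1 in cells with Krt73 and without Tchh, and Dmkn and Maf in cells with all 6 genes. Levels are pooled over libraries, and the high Prr9 of the last column comes from 1 cell with 595 UMIs.

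The label was checked against markers of other classes. A cell was counted for a class when 2 of its markers had 2 or more UMIs. Of the 115 cells with 5 or 6 rule genes, 0 were counted for hair shaft, 2 for companion layer, 5 for basal and 14 for suprabasal markers. Of the 130 cells with 3 rule genes, 15 were counted for hair shaft, 14 for companion layer, 50 for basal and 4 for suprabasal markers. Some class other than basal was counted in 17 of the 115 and in 34 of the 130 cells. Over all 298 cells, 64 had 2 basal markers, 20 had 2 suprabasal, 17 had 2 companion layer and 15 had 2 hair shaft markers. Of the same cells, 6 had 2 fibroblast markers, 1 had 2 melanocyte markers, and 0 had 2 T cell or endothelial markers. All 298 are called inner root sheath-like below. Doublets were not called, and leaving out the 55 cells with 2 markers of a class other than basal was run as an alternative, which kept cells counted for basal markers alone.

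Whether PBMCsec changed the abundance of these cells was asked by their share in each library. Among cells within the quality limits the share was 0.926% in PBMCsec 1 (exact 95% interval 0.445% to 1.70%), 0.756% in PBMCsec 2 (0.206% to 1.92%), 0.908% in PBMCsec 3 (0.576% to 1.36%) and 4.00% in PBMCsec 4 (3.09% to 5.08%). In the vehicle libraries it was 1.47% in vehicle 2 (0.540% to 3.17%), 4.203% in vehicle 3 (3.502% to 4.997%) and 3.95% in vehicle 4 (3.09% to 4.98%). Vehicle 1 had 0 of 318 cells, which allows a share of up to 0.943% when 3 counts are taken as the limit, and up to 1.15% by the exact interval. Intervals and these limits cover counting error only. High and low libraries occurred in both groups, and the groups overlapped. The share averaged 1.65% ± 1.57 (SD, n = 4) in the PBMCsec libraries and 2.41% ± 2.02 (SD, n = 4) in the vehicle libraries, which is -0.758 percentage points for PBMCsec minus vehicle (exact two-sided permutation test, p = 0.686, adjusted over 2 shares p = 0.80). The smallest p this design allows is 0.0286.

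Among epithelial cells alone, with at least 1% keratin UMIs, 138 of the 298 cells remained, since 160 lay under that minimum. The share was then 1.80%, 2.04%, 1.95% and 4.22% in PBMCsec 1 to 4 and 0%, 0.730%, 2.99% and 5.12% in vehicle 1 to 4. The means were 2.50% ± 1.15 (SD, n = 4) and 2.21% ± 2.32 (SD, n = 4), or 0.294 percentage points in the other direction (exact two-sided permutation test, p = 0.80, adjusted p = 0.80). This difference turned negative in several alternatives, among them leaving out PBMCsec 4, vehicle 1 or vehicle 2. A difference between the treatments was thus not detectable in either share, which does not show that the shares were alike. The upper limits on genes and UMIs set the level of the share: without them it was 1.57%, 0.866%, 3.66% and 11.2% in PBMCsec 1 to 4 and 0.299%, 4.03%, 8.74% and 12.1% in vehicle 1 to 4, and the groups still overlapped.

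**Figure D4:**
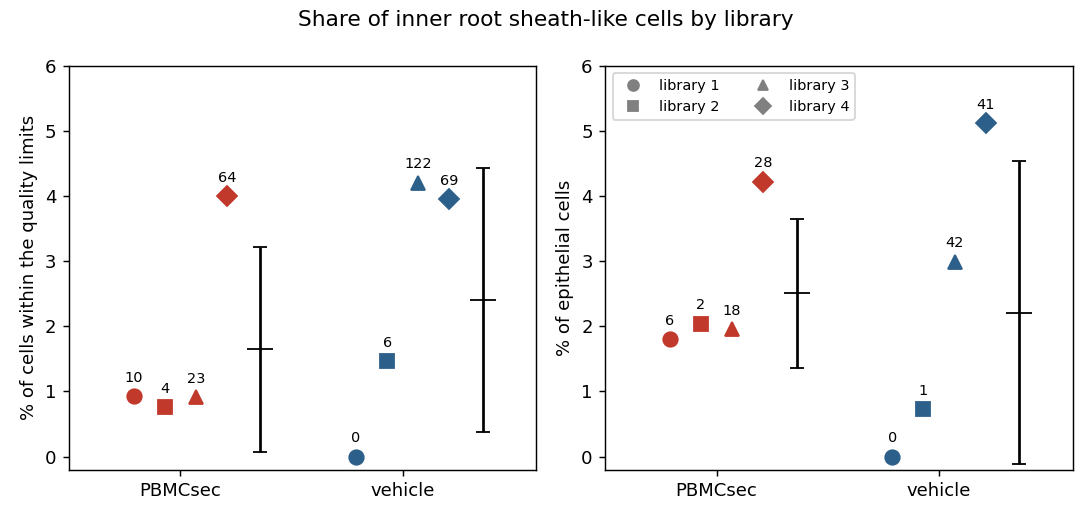
Share of inner root sheath-like cells in each library, as a percentage of cells within the quality limits (left) and of epithelial cells (right). Numbers are the cells counted, and black bars are the mean and SD of 4 libraries. The PBMCsec and vehicle points overlap in both panels.

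The make-up of these cells differed between libraries of the same treatment. Cells with 5 or 6 rule genes made up 5 of the 10 cells of PBMCsec 1, 0% of the 4 of PBMCsec 2, 65.2% of the 23 of PBMCsec 3 and 31.25% of the 64 of PBMCsec 4. They made up 66.7% of the 6 cells of vehicle 2, 27.05% of the 122 of vehicle 3 and 55.1% of the 69 of vehicle 4. The groups overlapped in this share.

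Gene expression after PBMCsec and vehicle was compared on counts summed per library. The quasi-likelihood test of edgeR was used, with p-values adjusted by Benjamini and Hochberg's method over all genes tested. The fit took the 5 libraries with at least 10 cells (PBMCsec 1, 3 and 4, vehicle 3 and 4, 288 cells). Of the libraries numbered 1 and 2, only PBMCsec 1 was among them, so treatment and library number were not balanced in this fit. The 6 rule genes had chosen the cells and are described above. Of 7825 genes tested, 14 were called higher after PBMCsec (0.179%) and 10 were called lower (0.128%), the call being an adjusted p below 0.05. Before adjustment, p was below 0.05 for 54 higher (0.69%) and 97 lower genes (1.24%). DESeq2 and limma-voom called 0 genes on the same libraries, and before adjustment they gave 12 higher and 14 lower genes (DESeq2) and 73 and 72 (limma-voom). Without PBMCsec 1, whose 10 cells gave 31164 UMIs, edgeR called 0 genes in either direction, with 64 higher and 92 lower before adjustment. The genes below are therefore reported with the value of each library, in TMM-scaled CPM in the order PBMCsec 1, 3 and 4, then vehicle 3 and 4.

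The lower genes included 3 keratins, of which Krt75, the companion layer keratin, had the smallest p of all. Krt75 stood at 0, 0, 15.3, 189.5 and 55.4 CPM, with both vehicle libraries above all PBMCsec libraries (log2 change -3.55 ± 0.51 SE, adjusted p = 1.8e-06). It was found in 10 cells of PBMCsec 4, 36 of vehicle 3 and 8 of vehicle 4. Cells with 2 companion layer markers numbered 0, 0, 2, 9 and 6 in the 5 libraries, and those with 2 basal markers 0, 0, 18, 36 and 10. These markers include Krt75, Krt14 and Krt15, and the part of these cells in the result was not tested. The basal keratin Krt14 stood at 87.6, 29.2, 168, 223 and 734.5 CPM (log2 change -2.15 ± 0.42 SE, adjusted p = 0.0012), and Krt15 at 0, 20.9, 72.3, 125 and 206 CPM (log2 change -1.70 ± 0.38 SE, adjusted p = 0.010). One cell of vehicle 4 held 52.3% of that library's Krt14 UMIs and one held 78.1% of its Krt15 UMIs, and the shares were 55.4% and 55.6% in vehicle 3. With the highest cell of each gene left out of every library, the adjusted p of edgeR was 0.289 for Krt14, 0.9999 for Krt15 and 1.9e-05 for Krt75. Krt75 was tested in 17 alternatives, and Krt14 and Krt15 in 21 each. Over these, the adjusted p ranged from 2e-10 to 0.999976 for Krt75 and from 2.1e-08 to 0.999976 for Krt14. For Krt15 it ranged from 9.9e-06 to 0.999976. In cells with 3 or 4 rule genes the log2 change of Krt15 was 0.28, the other direction.

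Thbs1 had the largest change of the 10 (log2 change -4.39 ± 0.76 SE, adjusted p = 9.7e-05 by edgeR). Fgf5, a growth factor known for ending hair growth, was also lower, at 0, 0, 6.95, 64.9 and 24.5 CPM (log2 change -3.20 ± 0.64 SE, adjusted p = 0.0017). Its UMIs came from 38 cells of vehicle 3, 9 of vehicle 4 and 4 of PBMCsec 4. Early response genes followed: Dusp1, a phosphatase of MAP kinases, at 58.4, 4.18, 6.95, 38.4 and 168 CPM, and the AP-1 gene Fosb at 0, 16.7, 6.95, 60.5 and 30.9 CPM. The matricellular genes Thbs1 (0, 0, 2.78, 33.2 and 60.6 CPM) and Cyr61 (0, 0, 6.95, 25.8 and 91.5 CPM), the protease inhibitor gene Serpinb2 (0, 0, 6.95, 67.1 and 24.5 CPM) and AC160336.1 (117, 109, 332, 1066 and 255 CPM) completed the 10. A single cell of vehicle 3 held 87.9% of that library's Serpinb2 UMIs. In vehicle 4 a single cell held 68.1% of the UMIs of Thbs1, 58.5% of Dusp1, 54.2% of Fosb and 50.7% of Cyr61. Groups did not overlap for 8 of the 10, all but Dusp1 and AC160336.1. Over all genes tested, 9.53% had every PBMCsec library below every vehicle library.

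Among the 14 higher genes the groups overlapped for 11. Fam25c stood at 146, 66.8, 128, 18.4 and 43.8 CPM, Qsox1, a sulfhydryl oxidase, at 29.2, 33.4, 48.7, 12.5 and 1.29 CPM, and the globin gene Hbb-bs at 29.2, 29.2, 59.8, 5.16 and 3.87 CPM, each with every PBMCsec library above both vehicle libraries (3.86% of all genes tested). In PBMCsec 1 these levels rest on 5 UMIs of Fam25c, 1 of Qsox1 and 1 of Hbb-bs. Hbb-bs is a gene of red blood cells. Without TMM scaling, the 5 red blood cell genes together stood at 78.1, 54.6 and 83.8 CPM in PBMCsec 1, 3 and 4. They stood at 8.67 and 10.4 CPM in vehicle 3 and 4, and their part in the result was not tested. Fbp1 stood at 29.2, 413, 211, 25.8 and 77.3 CPM (log2 change 2.40 ± 0.41 SE, adjusted p = 9.4e-05), and cyclin D1 (Ccnd1) at 87.6, 597, 239, 96.6 and 106 CPM (log2 change 1.79 ± 0.39 SE, adjusted p = 0.0073). For both, PBMCsec 3 and 4 were above the vehicle libraries and PBMCsec 1, with 1 and 3 UMIs, was not above both. Over all alternatives the adjusted p ranged from 1.2e-11 to 0.999976 for Fbp1 and from 1.5e-07 to 0.999976 for Ccnd1.

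Single cells carried several of the higher genes. Prr9, a gene of the epidermal differentiation complex, stood at 58.4, 484, 1045, 147 and 174 CPM, and a single cell held 79.2% of its UMIs in PBMCsec 4. The same share was 92.8% for Pinlyp, 88.5% for the deiminase gene Padi1, 77.1% for Qsox1, 77.2% for Fam25c and 98.6% for Lypd5 in PBMCsec 4, and 95.2% for S100a3 in PBMCsec 3. Hmox1, which encodes heme oxygenase 1, stood at 525, 0, 18.1, 2.95 and 3.87 CPM, and 94.4% of its 18 UMIs in PBMCsec 1 came from a single cell. AY036118 (3153, 493, 97.4, 212 and 96.6 CPM) and Lars2 (963, 238, 75.1, 63.4 and 79.9 CPM), the gene of mitochondrial leucyl-tRNA synthetase, were highest in PBMCsec 1. Cryba4 had 0, 109, 40.3, 4.43 and 18.0 CPM. The log2 change fell below 0 in some alternatives for Pinlyp (lowest -0.37), Lypd5 (-0.55), S100a3 (-0.056), AY036118 (-0.35) and Lars2 (-0.17). Over all 24 genes called, 14 had a cell that held over 25% of their UMIs. With the highest cell of each gene left out of every library, edgeR called 5 genes higher, all among the 14 (Fbp1, Hbb-bs, AY036118, Ccnd1 and Prr9), and 8 lower, 6 of them among the 10.

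**Figure D5:**
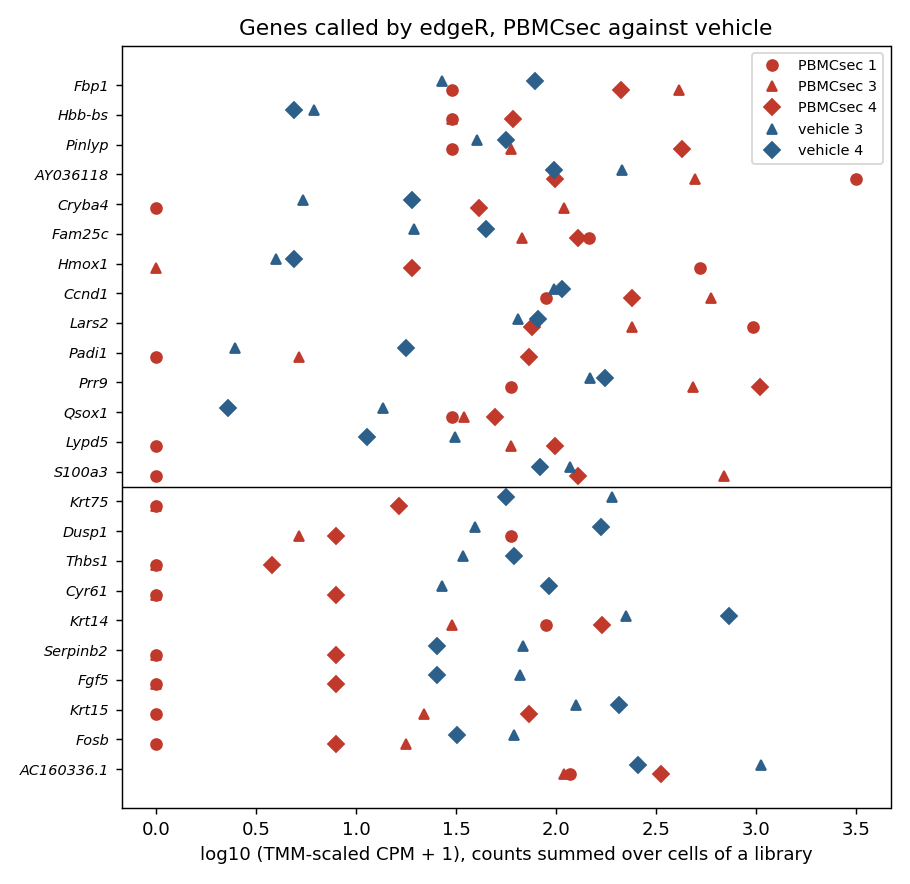
Level of the 14 genes called higher (above the line) and the 10 called lower (below the line) after PBMCsec, as log10 of TMM-scaled CPM plus 1 in each of 5 libraries (red PBMCsec, blue vehicle). PBMCsec 1 lay at 0 for 4 of the higher and 7 of the lower genes.

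Gene lists were described by their calls. Of 26 follicle transcription factors tested, 0 were called, with 4 lower before adjustment and a median log2 change of -0.01 beside -0.05 over all genes tested. Of the genes of trichohyalin, deiminases and transglutaminases, 5 were tested besides the rule gene Tchh, and 1 was called higher (Padi1) and 0 lower. Of 16 desmosome and junction genes, 28 genes of Shh, Wnt, Bmp, Notch and Egf signalling, 9 lipid genes, 8 proteases and inhibitors and 19 S phase genes, 0 were called. Of 23 G2 and M phase genes 0 were called, although 4 were lower before adjustment and the median log2 change was -0.53. In 11 of the 23 every PBMCsec library lay below both vehicle libraries, beside 9.53% of all genes tested. In PBMCsec 1 these 11 genes had between 0 UMIs, as for Ccna2 and Ube2c, and 3 UMIs, for Smc4. The place of that library below the vehicle libraries thus rests on few UMIs. Of 21 immediate early and heat shock genes, 2 were called lower (Dusp1 and Fosb) and 0 higher, with 8 lower and 1 higher before adjustment. Over all genes tested, 0.128% were called lower and 1.24% were lower before adjustment. Of 6 basal and outer root sheath genes 2 were called lower, and of 3 companion layer keratins 1, beside the same 0.128%. These lists are small, and their calls are the 3 keratins above. S100a3 was the only one of 8 S100 genes called. The calls of Padi1 and S100a3 stand beside 0.179% of all genes called higher. Genes of several lists moved with the number of rule genes, which differed between the libraries. The part of this make-up in the result was not tested.

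Markers of other cells were counted beside this comparison, here in CPM without TMM scaling. A list of 8 leukocyte genes summed to 312.5 CPM in PBMCsec 1 and to at most 27.5 CPM in the other libraries, with Cd74 as its most abundant gene and Tyrobp at 0. Ptprc, also on the list, was at 0 by the rule. The value of PBMCsec 1 rests on few UMIs, since its 10 cells gave 31164 in all. The fibroblast list summed to 78.1, 222 and 741 CPM in PBMCsec 1, 3 and 4 and to 1033 and 246 CPM in vehicle 3 and 4. Dcn was its most abundant gene, and stood at 39.1, 164 and 653 CPM and at 886 and 193 CPM in the same libraries. The endothelial and mural list was at most at 31.4 CPM and the melanocyte list at most at 57.0 CPM in any library, with Kdr and Cdh5 at 0. Their part in the result was not tested.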

How the data were processed

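The libraries were 10x Genomics single-cell libraries of mouse dorsal skin. For each library the authors deposited a matrix of UMI counts, not normalized, made with mm10. The submitters' processing notes and the file headers name Cell Ranger 3.0.2, while the methods of the study name another version. The cells and the gene lists were chosen with earlier results of these data known. The gene lists were written from general knowledge. Gm42418, Gm17056 and Gm26917 were left out throughout, and Col1a1, Col1a2 and Col3a1 out of the tests, following the methods of the study. CPM were taken from summed UMIs after these 3 genes were left out, and ratios used a prior of 10 CPM.

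The summed counts of each library entered edgeR 4.0.16 (quasi-likelihood test after filterByExpr, TMM scaling), with DESeq2 1.42.0 and limma 3.58.1 as alternatives, under R 4.3.3. SE was taken from the log2 change and the F statistic. In counts simulated for this comparison, the test recovered 2.17% of 2-fold and 76.1% of 4-fold changed genes. The simulation used the same dispersion for all genes and held no single cells with many UMIs, so its recovery may differ from that in the data. Shares were compared with exact permutation tests over 70 labellings (scipy 1.17.1). Named genes were the 6 rule genes, the 20 with the highest ratio to other epithelial cells (1 of them is not reported here), list members, all called genes and the 5 with the most similar pattern. Genes shown by combination, and those along the number of rule genes, were chosen after their values were seen. Depth was limited by 31164 UMIs in the 10 cells of PBMCsec 1, of which 25084 entered the fit.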

Additional observations from a re-analysis of the deposited data

Results flagged for a closer look

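PBMCsec 4 stood apart from the other 3 PBMCsec libraries in both shares. Its share of inner root sheath-like cells was 4.00% of cells within the quality limits and 4.22% of epithelial cells, and its gap to the nearest library exceeded the 95% critical value of Dixon's test for 4 samples. Chance flags about 1 in 20 groups, and 4 groups were examined.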

How the results depend on the processing

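Leaving out 1 library at a time moved the difference in share (PBMCsec minus vehicle, percentage points) between -1.56 and -0.160 for cells within the quality limits, and between -0.442 and 1.26 for epithelial cells. Libraries numbered 1 and 2 alone gave 0.108 for the first share. The difference among epithelial cells turned negative with rule genes at 4 or more UMIs (-0.0052), without upper limits on genes and UMIs (-0.328), with cells thinned to 2000 UMIs (-0.155), without a minimum on the keratin share (-0.832), for libraries numbered 3 and 4 alone (-0.968), and without PBMCsec 4 (-0.277), vehicle 1 (-0.442) or vehicle 2 (-0.199). No share test passed the threshold.

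The number of genes called (14 higher, 10 lower) was 0 and 0 with DESeq2, with limma-voom, with at least 20 cells in a library, with libraries numbered 3 and 4 alone and with a mitochondrial limit of 5%. It was 1 and 0 with at least 5 cells in a library, 24 and 15 without a filter on low counts, 7 and 6 with at least 4 rule genes, and 5 and 5 without cells carrying markers of another class. It was 33 and 23 for cells with 3 or 4 rule genes, where a lone PBMCsec library is assumed to vary like the others and gives no spread of its own, 3 and 5 for cells with 5 or 6, and 5 and 8 without the highest cell of each gene. Leaving out 1 library gave 0 to 13 higher and 0 to 24 lower genes. The lowest count came without PBMCsec 1 in both directions and the highest number of lower genes without PBMCsec 4. Leaving out PBMCsec 1, asking for at least 20 cells and taking libraries numbered 3 and 4 alone were the same fit (4 libraries, 278 cells). Without vehicle 3 or vehicle 4 the lone vehicle library was likewise assumed to vary like the others. The alternatives without a minimum on the keratin share, with cells split at 5 rule genes, with the genes of libraries 3 and 4 alone and without the highest cell were chosen after seeing the data.

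With the library number as a replicate block, edgeR called 7 genes higher and 6 lower, all among the 14 and 10. Paired by number, both share tests gave an exact permutation p of 0.75. Whether libraries of the same number deviated together could be checked for numbers 3 and 4 only, where r was -0.06. With 2 libraries in a group the deviations mirror each other, so both pairs give this same value. The check therefore cannot decide whether the number pairs libraries, and the main tests did not use the number.

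Signs of log2 changes reversed for Pinlyp (-0.37 without markers of another class, -0.31 with 5 or 6 rule genes, -0.22 without the highest cell), AY036118 (-0.35) and Lars2 (-0.17) with 3 or 4 rule genes, Lypd5 (-0.55 with 5 or 6), S100a3 (-0.056 without the highest cell) and Krt15 (0.28 with 3 or 4). The checks of called genes counted the fit without PBMCsec 1 under each of its names given above. Of 452 such checks, 216 kept direction and call, 228 kept only the direction and 8 reversed. The cause was not tested. The upper limits on depth, 0 cells in vehicle 1 and the 10 shallow cells of PBMCsec 1 limit both comparisons.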
